A study of Mus musculus with 47 samples.

Results

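The immunoglobulin variable (V) segments of the mouse are the short germline genes from which B cells assemble the antigen-binding part of an antibody chain. Every row of the deposited exon count table whose symbol began with Ighv, Igkv or Iglv was taken, which gave 94 segments of 38087 genes: 32 of the heavy chain locus, 59 of the kappa light chain locus and 3 of the lambda light chain locus. Total RNA had been sequenced from the duodenum and the ileum of C57BL/6j males, 15 to 16 weeks old and fed ad libitum. Samples were collected at 6 times of day, given as zeitgeber time (ZT, in hours, with lights on at 0). The germ-free (GF) group, reared without a gut microbiome, comprised 11 ileum and 12 duodenum libraries, and the conventional raised (convR) group comprised 12 ileum and 12 duodenum libraries. Each time had 2 libraries, except ZT2 in GF ileum, which had 1. The labels number the libraries of a time but do not say whether they came from separate mice, so p-values measure the spread between these libraries. The comparison of GF with convR asks which segment transcripts depend on the presence of a microbiome in each part of the small intestine.

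In a developing B cell, a V segment is joined to D and J segments in the heavy chain locus, or directly to a J segment in the kappa and lambda loci, and the joined exon is then spliced to a constant region. Each clone of B cells therefore carries mainly a single heavy and a single light V segment in its transcripts. In the small intestine most immunoglobulin RNA comes from plasma cells of the lamina propria, which secrete dimeric IgA, and expanded plasma cell clones can hold a large part of the transcripts. In these bulk libraries, fewer plasma cells and less RNA per plasma cell cannot be told apart. The sequence of the joined V exon also carries the joint and somatic mutations, which the counts per gene do not show.

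The symbols cover part of the V repertoire only. By gene identifier, the GENCODE M21 annotation holds 123 further V segments to which the count table gives clone-based names, and the 94 members took 35.1% of all counts on V segments. Of the members, 82 are annotated as V genes, 8 as pseudogenes, and 4 have no entry. In 7 members the annotation gives another V symbol for the same identifier (the row called Ighv7-3 in the table is Ighv7-1 there). The names of the count table are used throughout. Shares of V counts are shares of the counts on the 94 members, except where all 217 V segments are named.

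The segments on which the results turn are shown by the 3′ end of their germline V exon (GENCODE M21 coding sequence, GRCm38/mm10, at most 300 bases, read on the coding strand). The first 4 are the heavy chain segments with the highest or relatively highest level in GF libraries. Ighv4-1 lies at chr12:113948282-113948581 (minus strand), Ighv7-3 at chr12:113896408-113896707 (minus), Ighv3-5 at chr12:114262652-114262950 (minus) and Ighv6-3 at chr12:114391712-114392011 (minus). The next 3 are kappa segments of convR libraries: Igkv17-127 at chr6:67861374-67861659 (plus), Igkv4-72 at chr6:69226854-69227153 (minus) and Igkv8-27 at chr6:70171809-70172108 (minus). In these 7 the capitals mark the codon of the conserved cysteine near the end of the segment, found as the last TGT or TGC codon after a tyrosine codon. The bases after it are the germline part of the third complementarity-determining region, the loop that the joining step completes.
Ighv4-1: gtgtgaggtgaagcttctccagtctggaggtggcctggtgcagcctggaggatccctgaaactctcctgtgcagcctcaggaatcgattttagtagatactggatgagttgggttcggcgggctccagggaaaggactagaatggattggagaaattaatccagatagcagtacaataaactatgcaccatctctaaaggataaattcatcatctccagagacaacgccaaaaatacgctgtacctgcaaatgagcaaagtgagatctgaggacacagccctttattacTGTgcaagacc
Ighv7-3: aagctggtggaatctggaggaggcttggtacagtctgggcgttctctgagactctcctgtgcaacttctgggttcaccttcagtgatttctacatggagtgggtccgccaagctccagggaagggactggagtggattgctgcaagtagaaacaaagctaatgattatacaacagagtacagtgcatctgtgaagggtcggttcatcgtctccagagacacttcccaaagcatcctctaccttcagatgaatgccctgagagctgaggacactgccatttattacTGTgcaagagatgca
Ighv3-5: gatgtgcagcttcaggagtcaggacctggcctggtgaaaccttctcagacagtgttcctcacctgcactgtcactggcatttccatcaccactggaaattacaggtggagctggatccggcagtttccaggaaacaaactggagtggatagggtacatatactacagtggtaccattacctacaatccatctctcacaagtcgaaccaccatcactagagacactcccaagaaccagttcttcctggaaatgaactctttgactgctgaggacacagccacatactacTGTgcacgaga
Ighv6-3: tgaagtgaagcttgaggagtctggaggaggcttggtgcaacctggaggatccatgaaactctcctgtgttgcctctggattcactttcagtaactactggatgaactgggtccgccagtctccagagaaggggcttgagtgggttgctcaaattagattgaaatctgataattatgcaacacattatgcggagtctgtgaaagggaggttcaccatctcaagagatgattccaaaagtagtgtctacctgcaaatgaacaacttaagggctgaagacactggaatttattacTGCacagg
Igkv17-127: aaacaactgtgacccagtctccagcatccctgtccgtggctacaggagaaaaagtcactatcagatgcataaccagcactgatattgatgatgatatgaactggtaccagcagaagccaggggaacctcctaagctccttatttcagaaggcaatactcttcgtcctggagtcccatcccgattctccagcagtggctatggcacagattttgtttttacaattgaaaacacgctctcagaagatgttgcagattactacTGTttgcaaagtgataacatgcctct
Igkv4-72: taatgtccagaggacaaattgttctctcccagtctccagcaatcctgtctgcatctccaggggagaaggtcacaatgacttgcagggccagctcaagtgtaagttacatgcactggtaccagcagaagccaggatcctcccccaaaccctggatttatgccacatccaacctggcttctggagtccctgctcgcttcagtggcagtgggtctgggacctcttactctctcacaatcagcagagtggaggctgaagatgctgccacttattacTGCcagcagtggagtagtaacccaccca
Igkv8-27: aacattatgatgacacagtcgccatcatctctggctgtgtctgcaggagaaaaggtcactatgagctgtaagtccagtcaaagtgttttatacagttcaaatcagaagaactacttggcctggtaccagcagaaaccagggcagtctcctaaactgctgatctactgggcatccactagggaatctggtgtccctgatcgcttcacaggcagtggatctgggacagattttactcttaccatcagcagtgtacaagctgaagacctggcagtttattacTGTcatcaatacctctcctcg

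The lambda pair is shown because its members are near copies. Iglv1 lies at chr16:19085017-19085316 (minus) and Iglv2 at chr16:19260401-19260700 (minus), and the capitals mark the 8 positions at which the printed stretches differ.
Iglv1: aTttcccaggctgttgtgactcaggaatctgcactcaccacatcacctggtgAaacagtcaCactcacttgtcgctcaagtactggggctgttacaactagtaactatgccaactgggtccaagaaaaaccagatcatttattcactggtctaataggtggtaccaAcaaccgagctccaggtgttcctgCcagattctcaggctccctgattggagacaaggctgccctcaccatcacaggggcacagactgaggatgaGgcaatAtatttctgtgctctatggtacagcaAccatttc
Iglv2: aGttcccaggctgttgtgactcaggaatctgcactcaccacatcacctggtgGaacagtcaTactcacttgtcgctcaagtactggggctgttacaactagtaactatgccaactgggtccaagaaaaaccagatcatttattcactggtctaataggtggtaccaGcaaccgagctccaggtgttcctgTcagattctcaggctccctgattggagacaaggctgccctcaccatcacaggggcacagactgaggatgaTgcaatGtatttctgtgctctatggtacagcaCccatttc
The pair was 97.35% identical over its aligned coding sequence, and Igkv17-127 was 97.9% identical to Igkv17-121. Of the 82 members with a sequence, 27 share at least 1 run of 100 bases with another V transcript, the length of a single sequencing read. How reads that fit several segments were counted is not given in the sources used here, so the split between such near copies is uncertain. The 4 heavy chain segments above were 62.76% to 73.87% identical to each other. Other V segments lay nearer, as Ighv6-3 was 92.9% identical to Ighv6-6 and Ighv3-5 86.29% to Ighv3-4. Ighv4-1 shared 14 of its 315 runs of 100 bases with another V transcript, and Ighv7-3, Ighv3-5 and Ighv6-3 shared none. Of segments named below, Ighv1-72 shared 42.76% of its runs and Igkv3-10 shared 23.35%.

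Library totals were 22546800 to 41911085 counts (median 31935017). By a level of pancreas or stomach markers, the scaling factor or a low ileal Fabp6 level, 11 libraries stood apart from their group. They comprised 1 GF ileum, 3 GF duodenum, 1 convR ileum and 6 convR duodenum libraries, and results that change without them are given beside the result. In GF duodenum 2 libraries went against their time labels. The library labelled ZT14 replicate 1 had a V usage almost equal to that of ZT10 replicate 1 (Morisita-Horn likeness 0.991, where 1 is identical usage), the highest of all library pairs. Dbp, a clock output gene chosen for this check after its values were seen, had 134 CPM (in the counts-per-million unit) in that library, 131 CPM in the ZT10 library and 27.8 CPM in the other ZT14 library. The counts of the 2 libraries nevertheless differed as those of replicate pairs do (chi-square per degree of freedom 34.7, against 18.4 to 159 over 23 replicate pairs), so they were kept as separate libraries. The GF duodenum library labelled ZT6 replicate 1 was nearest in V usage to GF ileum ZT14 replicate 1 (0.924). Its Per2 level was 109 CPM, against 35.9 CPM in the other ZT6 library and 118 CPM in the second ZT14 library.

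V segment transcripts were scarce in GF libraries. The summed level of the members in ileum was 36.5 to 80.7 CPM (median 49.7) in GF libraries and 329 to 755 CPM (median 530) in convR libraries. In duodenum it was 104 to 274 CPM (median 172) in GF libraries and 817 to 1996 CPM (median 1108) in convR libraries. No GF library reached the lowest convR library of its tissue, and the GF mean was the lower at all 6 times in both tissues. The means were 53.3 ± 14.3 CPM in GF ileum (SD, n = 11) and 539 ± 130 CPM in convR ileum (SD, n = 12), a ratio of 0.0988 or -3.34 on the log2 scale. In duodenum they were 177 ± 55.0 CPM in GF and 1204 ± 330 CPM in convR (SD, n = 12 each), a ratio of 0.147 or -2.76 on the log2 scale. Over all 217 V segments known by identifier the log2 ratios were -3.61 in ileum and -2.92 in duodenum, and leaving out the most abundant segment of each library gave -3.32 and -2.75. As a sum over the members these values carry no test.

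**Figure D1:**
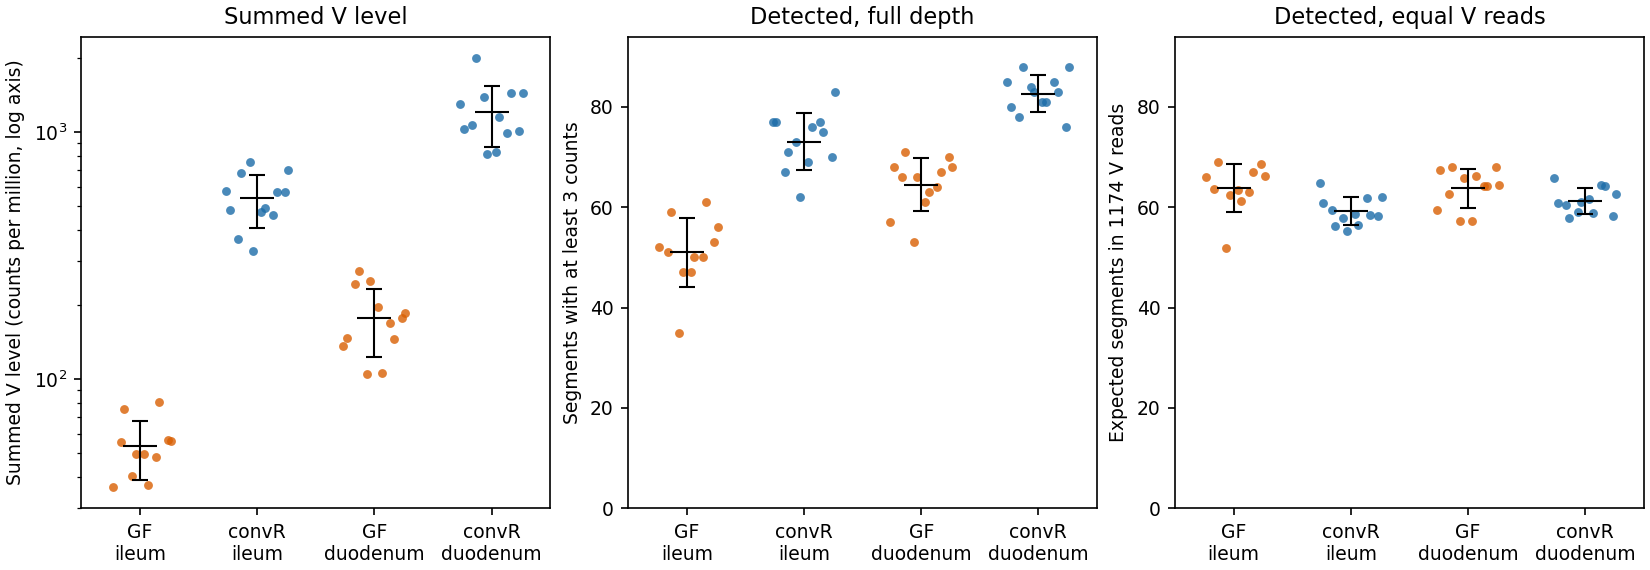
Summed level of the 94 V segments (CPM, log axis), number with at least 3 counts, and number expected in 1174 V reads, for GF ileum, convR ileum, GF duodenum and convR duodenum from left to right. Points are libraries (GF orange, convR blue) and black bars show the mean ± SD. GF libraries lie below all convR libraries of their tissue in level and in segments with at least 3 counts, and overlap with them at equal V reads.

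The summed level was lower in GF for the members of each of the 3 loci. Heavy chain members averaged 22.8 ± 5.44 CPM in GF ileum and 131 ± 47.9 CPM in convR ileum, and 80.9 ± 20.7 CPM in GF duodenum and 281 ± 81.5 CPM in convR duodenum. Kappa members averaged 24.3 ± 9.22 CPM in GF ileum and 344 ± 113 CPM in convR ileum, and 78.2 ± 34.5 CPM in GF duodenum and 776 ± 262 CPM in convR duodenum. Lambda members averaged 6.12 ± 2.64 CPM in GF ileum and 64.6 ± 26.2 CPM in convR ileum, and 18.1 ± 6.32 CPM in GF duodenum and 146 ± 68.7 CPM in convR duodenum (all SD, n = 11 for GF ileum and 12 otherwise). In none of the 3 loci did a GF library overlap with a convR library of its tissue. Heavy chain segments thus made up 43.6% ± 7.78 of member V counts in GF ileum and 24.3% ± 7.00 in convR ileum, and 46.5% ± 4.78 in GF duodenum and 23.9% ± 5.87 in convR duodenum. That shift rests on which segments carry the symbols: over all 217 V segments the heavy chain share was 44.3% in GF ileum, 42.3% in convR ileum, 46.5% in GF duodenum and 43.6% in convR duodenum.

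The constant region genes, to which the V exons are spliced, fell with the segments. They were matched by gene identifier, as the table lists Igha by a clone-based name and Jchain as Igj. All 9 constant region rows in the table were lower in GF in both tissues (edgeR, adjusted p under 0.05), against 22.4% of all genes tested in ileum and 23.8% in duodenum. The rows of Ighe, Ighg1, Ighg2c and Ighg3 had near-equal levels, at 224, 229, 226 and 226 CPM in convR duodenum. Whether they counted the same reads was not tested, so the 9 rows are not taken as separate genes. Igha, the constant region of IgA, averaged 147 CPM in GF ileum and 2453 CPM in convR ileum, and 703 CPM in GF duodenum and 6146 CPM in convR duodenum. Its log2 fold change was -4.02 in ileum and -3.06 in duodenum. Igkc, the kappa constant region, fell by 3.72 and 3.13 on the log2 scale in ileum and duodenum, Ighm, the constant region of IgM, by 2.79 and 2.70, and Jchain, which joins IgA dimers, by 3.73 and 3.07. The ratio of member V counts to Igkc counts averaged 0.995 in GF ileum and 0.743 in convR ileum, and 0.989 in GF duodenum and 0.723 in convR duodenum, with overlapping libraries.

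Other B lineage genes were listed to place the segments beside plasma cells and follicles. Of 14 plasma cell genes, 12 fell in GF ileum and 14 in GF duodenum, and none rose, where 22.4% of all genes tested fell in ileum and 23.8% in duodenum. Pou2af1, a coactivator at V promoters, fell by 2.29 in ileum and 2.03 in duodenum on the log2 scale, and Pou2f2, the octamer-binding factor Oct-2, by 1.34 and 0.96. Of the B cell and follicle list, 5 of 11 tested genes fell in GF ileum and 9 of 9 in GF duodenum. The mean level over that list was 2.21 CPM in GF ileum, 6.48 CPM in convR ileum, 1.03 CPM in GF duodenum and 4.12 CPM in convR duodenum, and in both tissues GF and convR libraries overlapped. Individual libraries ranged from 0.429 to 5.21 CPM in GF ileum and from 0.841 to 13.8 CPM in convR ileum, so follicle content varied widely within a group. Its part in the V segment results was not tested. The genes of recombination itself were scarce but not at 0: over all 47 libraries together, Rag1 and Rag2, the recombinase, had 43 and 32 counts, Dntt, which adds bases at the joint, had 115, and Vpreb1 and Igll1, the surrogate light chain, had 195 and 15.

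Fewer segments were seen in GF libraries at full depth, and the groups overlapped at equal V reads. In ileum, 51.0 ± 6.96 segments had at least 3 counts in GF libraries and 73.1 ± 5.62 in convR libraries. In duodenum there were 64.5 ± 5.32 in GF libraries and 82.7 ± 3.68 in convR libraries (SD). GF libraries held 1174 to 2977 member V counts in ileum and 3118 to 7833 in duodenum, against 10082 to 27586 in convR ileum and 22260 to 65137 in convR duodenum. When every library was thinned to 1174 V counts, the number of segments expected with at least 1 count was 63.9 ± 4.74 in GF ileum and 59.2 ± 2.76 in convR ileum, and 63.8 ± 3.91 in GF duodenum and 61.3 ± 2.56 in convR duodenum. At equal depth GF libraries thus averaged 4.66 segments more in ileum and 2.48 more in duodenum, with overlap in both tissues. GF libraries lay between 51.8 and 69.1 in ileum, and convR libraries between 55.3 and 64.8. Counts are not independent molecules, as the libraries were amplified without molecular identifiers. Of the 94 segments, 25 had at least 3 counts in every GF ileum library and 22 in none, against 51 and 4 in convR ileum. In duodenum 45 segments were seen in every GF library and 17 in none, against 66 and 2 in convR.

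Among the 94 members, diversity of usage differed between GF and convR groups by less than the spread between libraries. The effective number of segments, the number of equally used segments that would give the same Simpson index, was 19.2 ± 5.55 in GF ileum and 17.2 ± 4.04 in convR ileum, and 19.5 ± 6.10 in GF duodenum and 19.2 ± 4.44 in convR duodenum (SD). Individual libraries ranged from 10.4 to 31.0 in GF duodenum and from 9.25 to 25.2 in convR duodenum. The most abundant member held 13.8% ± 4.56 of member V counts in GF ileum and 15.0% ± 6.73 in convR ileum, and 13.4% ± 4.29 in GF duodenum and 13.4% ± 5.76 in convR duodenum. The top 5 members together held 43.8% in GF ileum, 44.4% in convR ileum, 42.8% in GF duodenum and 41.5% in convR duodenum. Over all 217 V segments, the mean share of the most abundant was 6.21% in GF ileum and 7.87% in convR ileum. In duodenum it was 6.74% in GF and 7.21% in convR. Over all 217 V segments the effective number in ileum was 51.0 ± 12.2 in GF and 40.2 ± 8.73 in convR (SD). That difference of 10.7 was larger than among the members. The GF mean was the lower at 0 of 6 times, with overlapping libraries.

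**Figure D2:**
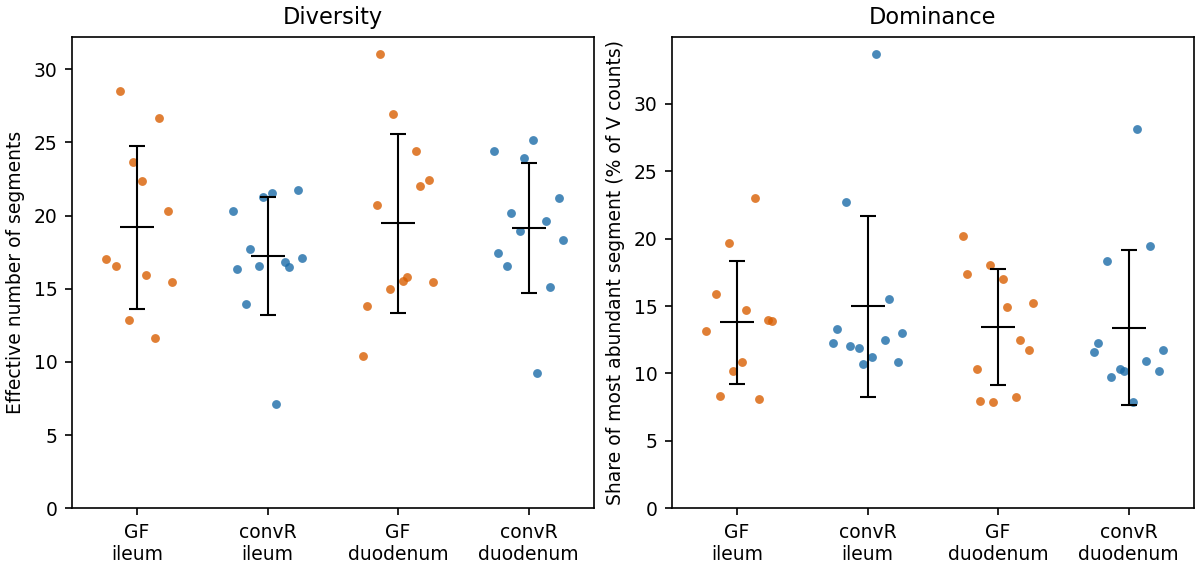
Effective number of the 94 V segments and share of member V counts held by the most abundant member (percent), for the same 4 groups in the same order. Points are libraries (GF orange, convR blue) and black bars show the mean ± SD. The groups overlap in both measures, and the highest point of the right panel is a convR ileum library at 33.7%.

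The largest shares of a single segment were found in convR libraries of ZT14 replicate 2. Igkv8-27 held 33.7% of member V counts in ileum (6069 of 18015, Wilson 95% interval 33.0% to 34.4%) and 28.1% in duodenum of the same time and number (13295 of 47268, 27.7% to 28.5%). These were also the libraries with the lowest effective numbers, 7.12 and 9.25. Among GF libraries, Ighv6-3 reached 23.0% in ileum at ZT18 replicate 1 (394 of 1714, 21.1% to 25%) and 20.2% in duodenum at ZT2 replicate 1 (847 of 4196, 19.0% to 21.4%). Iglv1 reached 22.7% in convR ileum at ZT6 replicate 1 (2674 of 11761, 22.0% to 23.5%). The intervals cover counting error only. Over all 217 V segments the shares were smaller. The highest share of 1 segment was 14.3% in convR ileum, 11.4% in convR duodenum, 9.08% in GF ileum and 9.36% in GF duodenum.

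Among the 94 members, heavy chain segments led more often in GF than in convR libraries. Which segment led over all 217 V segments was not recorded. Over those, the heavy chain share was 44.3% in GF and 42.3% in convR ileum, and 46.5% in GF and 43.6% in convR duodenum. In GF libraries the leading segment was Ighv6-3 in 8, Iglv1 in 6, Ighv4-1 in 5 and another segment in 3 of 23 libraries. In the remaining library, duodenum ZT18 replicate 1, Ighv6-3 and Iglv1 tied at 473 counts. In convR libraries it was Igkv8-27 in 5, Iglv1 in 4, Ighv3-6 in 3, and one of 8 further segments in the other 12 of 24 libraries. A heavy chain member led alone in 15 of 23 GF libraries and in 6 of 24 convR libraries. Per kilobase of exon, the highest mean levels were 16.0 ± 6.22 RPKM for Ighv6-3, 13.4 ± 5.03 for Iglv1 and 11.8 ± 6.5 for Ighv4-1 in GF ileum, against 142 ± 158 for Igkv8-27, 138 ± 59.1 for Iglv1 and 87.5 ± 76.4 for Ighv3-6 in convR ileum. In GF duodenum they were 51.7 ± 14.6 RPKM for Ighv6-3, 43.6 ± 19.0 for Iglv1 and 40.9 ± 24.4 for Ighv4-1, against 347 ± 192 for Iglv1, 278 ± 305 for Igkv8-27 and 192 ± 133 for Ighv3-6 in convR duodenum. The SD of Igkv8-27 exceeded its mean in both convR groups.

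**Figure D3:**
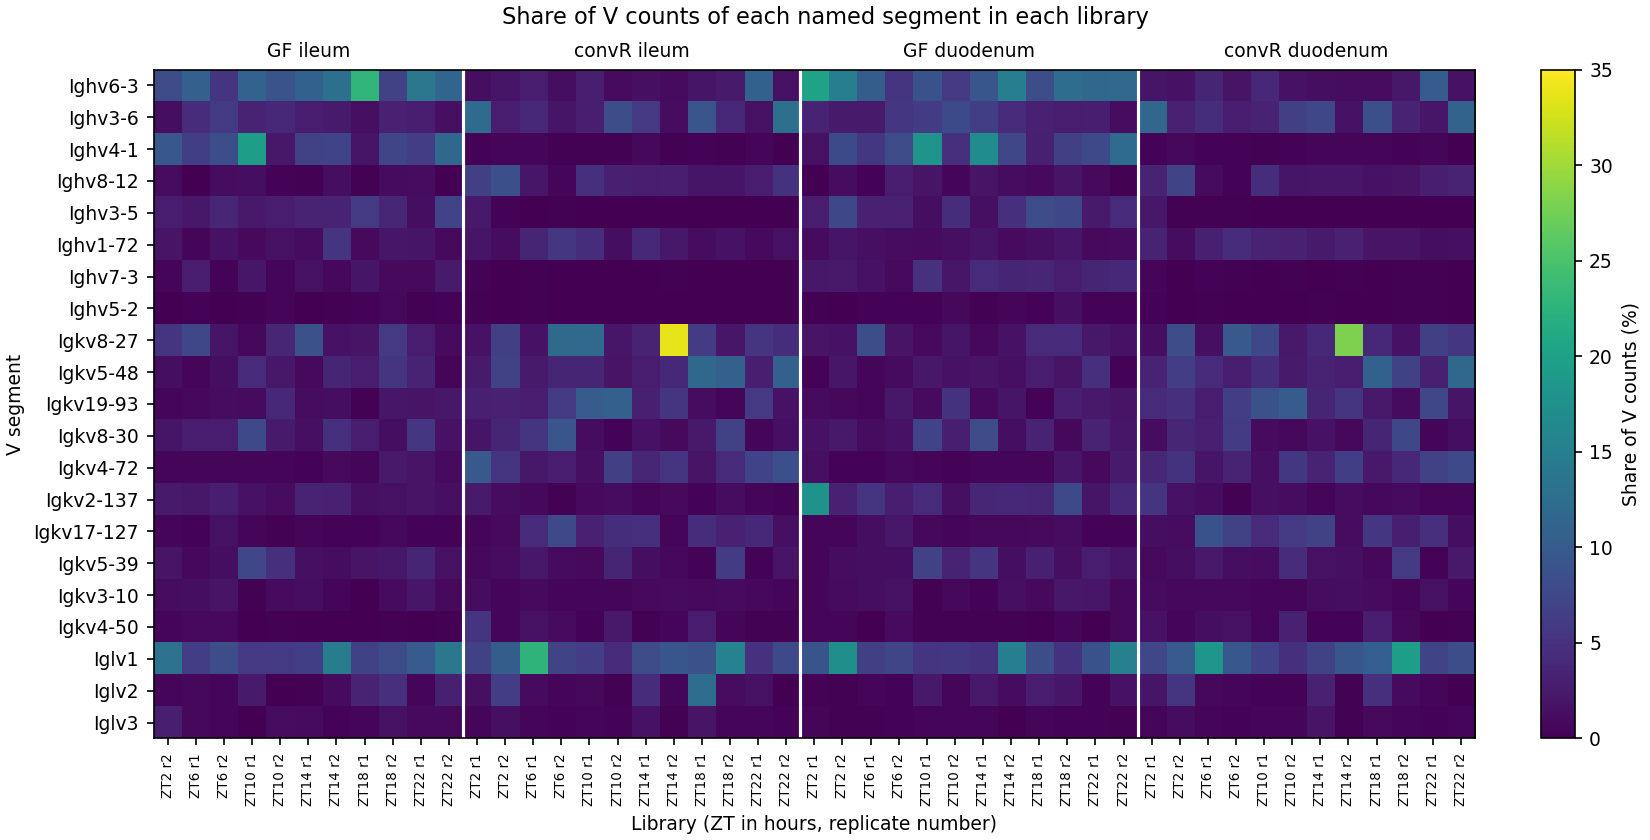
Share of member V counts (percent, colour, with yellow the highest) of each named segment in each library, with libraries ordered by tissue and status and labelled by ZT in hours and replicate number. Ighv6-3 and Ighv4-1 are brighter in most GF than in most convR libraries, Iglv1 is present in all 4 groups, and the 2 brightest Igkv8-27 cells are the convR libraries of ZT14 replicate 2 in both tissues.

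Of the 50 members with enough counts to be tested in ileum, 43 fell and 2 rose in GF (edgeR quasi-likelihood test with time as a factor, adjusted p under 0.05), against 22.4% of all genes tested that fell and 19.5% that rose. Of 62 tested in duodenum, 46 fell and 3 rose, against 23.8% and 22.5% of all genes. The median log2 fold change of the tested members was -3.26 in ileum and -2.66 in duodenum, and that of all genes was 0.007 and -0.008. The filter kept a member with enough counts in either status, so a member could enter through its convR libraries alone. Fewer members passed it in GF libraries alone, as the tests for time of day show below. The numbers of falls therefore depend in part on the filter. It left out 44 members in ileum and 32 in duodenum. Of these, 42 in ileum and 31 in duodenum had a lower mean in GF, and together they averaged 3.10 CPM in GF ileum and 21.4 CPM in convR ileum, and 3.23 CPM in GF duodenum and 13.6 CPM in convR duodenum. By locus, the ileum calls were 2 rises and 10 falls of 14 heavy chain members, 30 falls of 33 kappa members and 3 falls of 3 lambda members. The duodenum calls were 3 rises and 10 falls of 19 heavy chain, 33 falls of 40 kappa and 3 falls of 3 lambda members. Of the 50 members tested in both tissues, 40 fell in both and 2 rose in both. Scaling by library size alone moved the median of all genes in duodenum by -0.137 and gave 3 rises and 48 falls among the members.

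**Figure D4:**
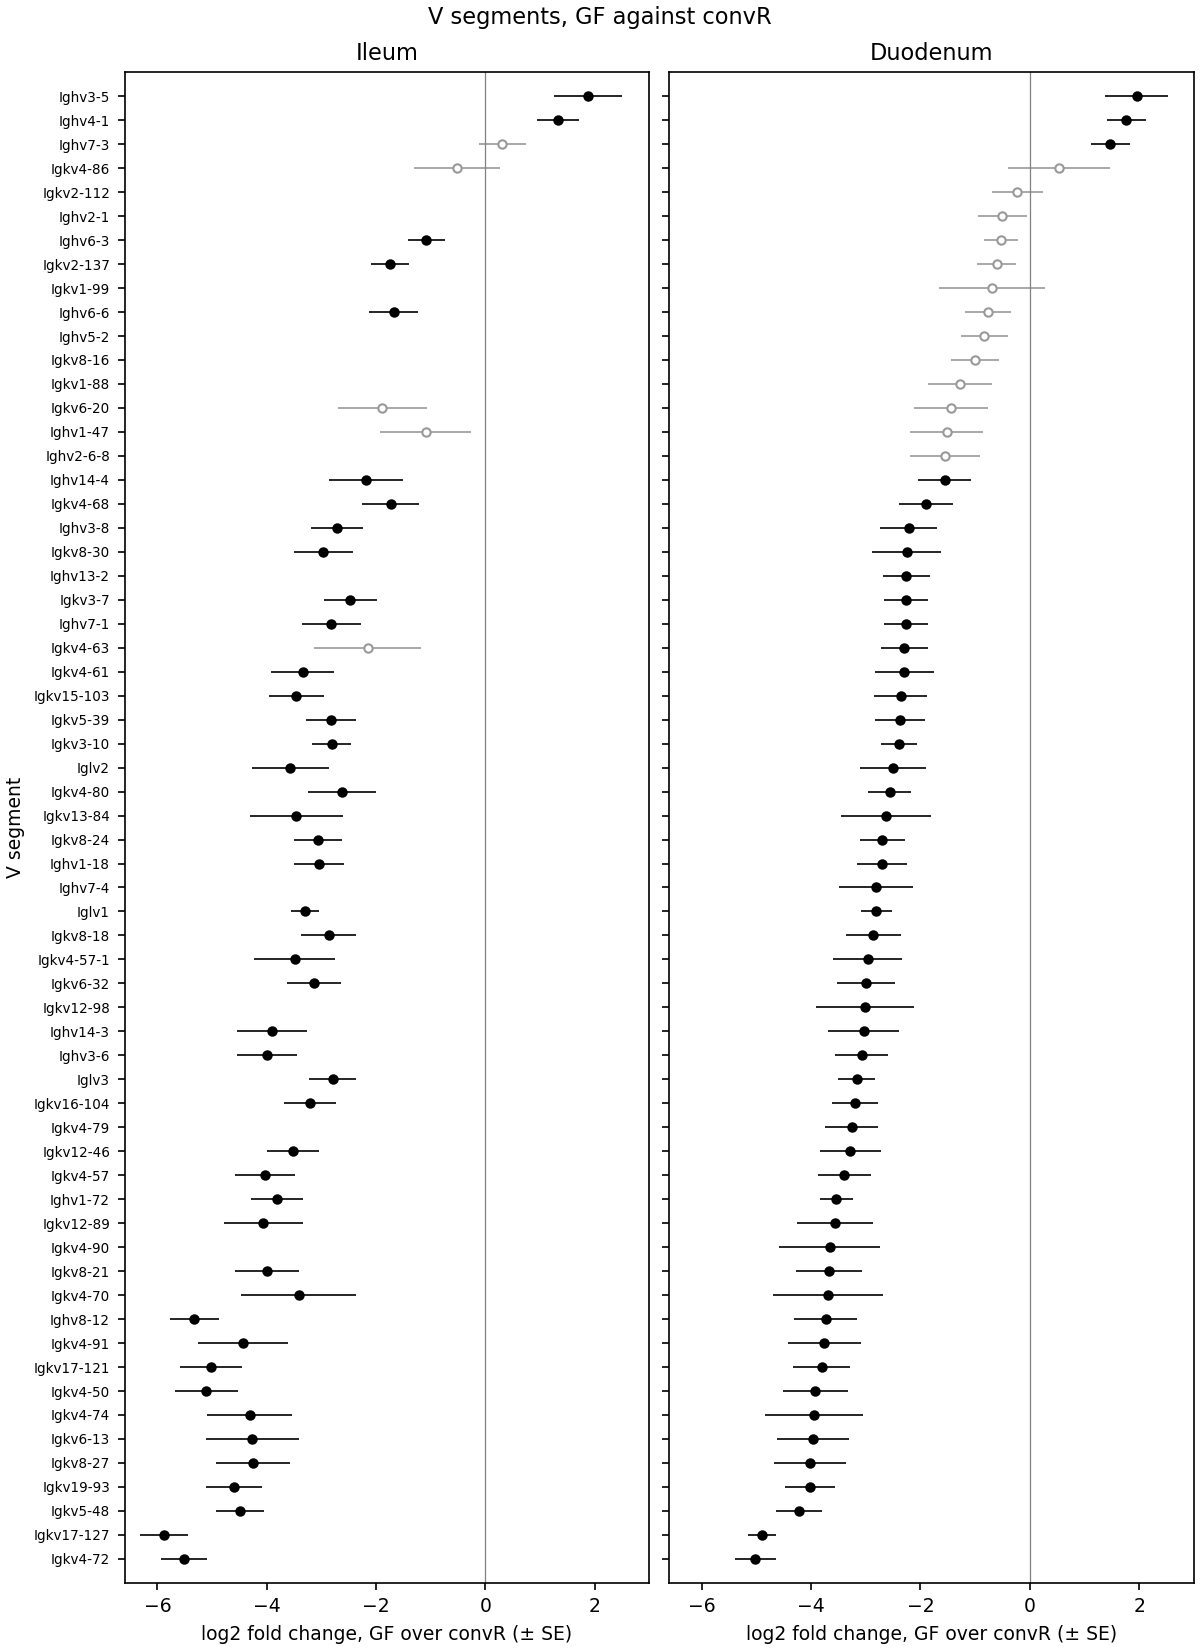
Log2 fold change, GF over convR, of each member tested in ileum (left) and duodenum (right), with bars of ± 1 SE. Black filled points passed the edgeR test (adjusted p under 0.05), open grey points did not, and a row without a point was not tested in that tissue. Most points lie between -2 and -6, and Ighv4-1 and Ighv3-5 lie above 0 in both tissues.

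Igkv17-127 and Igkv4-72 had the largest fitted falls among the tested members of both tissues. Igkv17-127 had 0.120 to 1.21 CPM (median 0.180) in GF ileum and 2.67 to 53.3 CPM (median 17.0) in convR ileum, and 0.619 to 6.05 CPM (median 1.12) in GF duodenum and 12.1 to 136 CPM (median 48.4) in convR duodenum. The groups did not overlap in either tissue, and the log2 fold change was -5.88 ± 0.44 in ileum (SE, edgeR adjusted p = 1.26e-08) and -4.89 ± 0.26 in duodenum (adjusted p = 1.62e-10). Igkv4-72 had 0.179 to 1.90 CPM (median 0.269) in GF ileum and 8.23 to 59.7 CPM (median 22.5) in convR ileum, and 0.469 to 4.61 CPM (median 1.02) in GF duodenum and 20.4 to 110 CPM (median 50.9) in convR duodenum. It did not overlap either, with log2 fold changes of -5.51 ± 0.42 (adjusted p = 1.67e-08) in ileum and -5.02 ± 0.37 (adjusted p = 1.38e-08) in duodenum. Igkv5-48 fell by 4.49 ± 0.45 in ileum and 4.22 ± 0.43 in duodenum on the log2 scale without overlap. Igkv4-50 fell by 5.11 ± 0.58 in ileum (adjusted p = 1.61e-06), where GF libraries lay at 0 to 0.622 CPM and convR libraries at 0.808 to 30.7 CPM.

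Igkv8-27, whose share was highest in the convR libraries of ZT14 replicate 2, also fell in GF. It had 0.303 to 4.75 CPM (median 1.55) in GF ileum and 6.11 to 165 CPM (median 29.8) in convR ileum, and 0.870 to 20.2 CPM (median 3.5) in GF duodenum and 15.0 to 324 CPM (median 52.5) in convR duodenum. GF and convR libraries overlapped in duodenum and not in ileum. Its log2 fold change was -4.25 ± 0.68 in ileum and -4.02 ± 0.65 in duodenum (edgeR adjusted p = 8.45e-05 and 8.32e-05), with a wider error than Igkv17-127. Igkv19-93 fell by 4.60 ± 0.51 and 4.03 ± 0.46 in the same order, without overlap in either tissue. The annotation lists the identifier of that row as the pseudogene Igkv11-106. Igkv2-137 fell in ileum, by 1.75 ± 0.35 (adjusted p = 5.70e-04), and did not pass the test in duodenum (-0.61 ± 0.36, adjusted p = 0.180), where it held 18% of V counts in GF ZT2 replicate 1.

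All lambda segments fell in both tissues. Iglv1 had 2.32 to 7.78 CPM (median 4.79) in GF ileum and 14.3 to 88.5 CPM (median 46.9) in convR ileum, and 5.46 to 28.1 CPM (median 14.8) in GF duodenum and 40.0 to 279 CPM (median 104) in convR duodenum. GF and convR libraries did not overlap, and the log2 fold change was -3.30 ± 0.25 in ileum (edgeR adjusted p = 1.44e-08) and -2.81 ± 0.28 in duodenum (adjusted p = 4.69e-07). Its share of V counts was nevertheless near equal in the 4 groups, at 9.05% ± 3.38 in GF ileum, 9.33% ± 5.12 in convR ileum, 9.05% ± 4.36 in GF duodenum and 9.92% ± 4.48 in convR duodenum. Iglv3 fell by 2.80 ± 0.44 in ileum and 3.17 ± 0.34 in duodenum. Iglv2, the near copy of Iglv1, fell by 3.57 ± 0.70 in ileum and 2.50 ± 0.60 in duodenum.

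Heavy chain segments moved in both directions. Ighv8-12 had 0 to 0.915 CPM (median 0.435) in GF ileum and 4.50 to 41.1 CPM (median 13.6) in convR ileum, without overlap, a log2 fold change of -5.32 ± 0.45 (edgeR adjusted p = 6.22e-08). In duodenum its log2 fold change was -3.74 ± 0.58, again without overlap. Ighv1-72 fell by 3.81 ± 0.47 in ileum and 3.54 ± 0.30 in duodenum, and Ighv3-6 by 4.00 ± 0.55 and 3.08 ± 0.48. Ighv6-3, the most frequent leading member of GF libraries, had 2.92 to 11.1 CPM (median 5.39) in GF ileum and 3.23 to 61.9 CPM (median 9.39) in convR ileum, and 9.27 to 27.3 CPM (median 18.3) in GF duodenum and 10.9 to 102 CPM (median 25.6) in convR duodenum. The groups overlapped over most of the GF range, and its log2 fold change of -1.08 ± 0.34 in ileum passed the test (adjusted p = 0.0164) while that of -0.52 ± 0.31 in duodenum did not (adjusted p = 0.174). Its share of V counts was 11.2% in GF and 2.55% in convR ileum, and 11.2% in GF and 2.73% in convR duodenum.

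Ighv4-1 and Ighv3-5 were the members that rose in GF in both tissues. Ighv4-1 had 0.956 to 7.94 CPM (median 3.56) in GF ileum and 0.662 to 3.57 CPM (median 1.53) in convR ileum, and 2.19 to 33.1 CPM (median 12.7) in GF duodenum and 1.80 to 8.26 CPM (median 4.21) in convR duodenum. Libraries of the groups overlapped, and the log2 fold change was 1.32 ± 0.38 in ileum (edgeR adjusted p = 0.00943) and 1.76 ± 0.36 in duodenum (adjusted p = 6.12e-04). Its share of V counts was 7.97% ± 4.79 in GF ileum and 0.354% ± 0.210 in convR ileum, and 8.34% ± 5.06 in GF duodenum and 0.383% ± 0.169 in convR duodenum. Ighv3-5 had 0.756 to 3.93 CPM (median 1.32) in GF ileum and 0.0677 to 13.6 CPM (median 0.330) in convR ileum, and 1.34 to 13.7 CPM (median 7.85) in GF duodenum and 0.393 to 29.9 CPM (median 1.45) in convR duodenum. The highest convR value came from ZT2 replicate 1 in both tissues and lay above all GF libraries. Its log2 fold change was 1.88 ± 0.62 in ileum (adjusted p = 0.0223) and 1.96 ± 0.57 in duodenum (adjusted p = 0.00961), and the ileum call was lost without GF ileum ZT22 replicate 2 (1.59, adjusted p = 0.0530).

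Ighv7-3 rose in duodenum, with 2.59 to 8.24 CPM (median 4.69) in GF libraries and 0.523 to 5.50 CPM (median 1.52) in convR libraries, a log2 fold change of 1.47 ± 0.36 (edgeR adjusted p = 0.00243). In ileum it had 0.187 to 1.53 CPM (median 0.759) in GF libraries and 0.130 to 2.31 CPM (median 0.516) in convR libraries, and did not pass the test (0.31, adjusted p = 0.597). Without the 11 libraries that stood apart, the 3 duodenum rises kept their sign and lost their call: Ighv4-1 had 1.47 (adjusted p = 0.0797), Ighv7-3 had 1.21 (adjusted p = 0.0786) and Ighv3-5 had 1.54 (adjusted p = 0.310). That fit had no convR duodenum library at ZT6 and ZT14 and no GF duodenum library at ZT22. With time as a factor, only ZT2, ZT10 and ZT18 compared the statuses in duodenum. Whether the calls were lost through the fewer libraries and times or through the libraries left out was not tested. The ileum rises passed without the libraries that stood apart, at 1.18 for Ighv4-1 (adjusted p = 0.0371) and 1.85 for Ighv3-5 (adjusted p = 0.0398). Igkv7-33 was named because it was the only segment whose GF duodenum libraries all lay above the convR ones. It had 0.226 to 4.13 CPM (median 1.36) in GF duodenum and 0 to 0.195 CPM (median 0.0765) in convR duodenum. The filter left Igkv7-33 out of the main test. In duodenum without the libraries that stood apart it was tested, and was the 1 member called as a rise. There it rose by 4.38 ± 0.77 on the log2 scale (adjusted p = 0.00208 in the edgeR test). Among all 94 members, GF libraries lay wholly below convR libraries in 17 segments in ileum and 16 in duodenum, wholly above in 0 and 1, and overlapped in 77 and 77. The same count was not made over all genes, so these numbers cannot be set against a general share. Among all V segments known by identifier, 126 of 136 tested fell and 2 rose in ileum, and 133 of 161 fell and 3 rose in duodenum, so that no segment under a clone-based name rose.

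No member passed the test of whether the GF effect differed between ileum and duodenum. Of 70 members tested for the interaction of status and tissue, 0 were called (edgeR, 12.3% of all genes called), 3 had an unadjusted p under 0.05, and DESeq2 called 0. The median difference was -0.44 on the log2 scale (ileum minus duodenum). With a block for libraries of equal status, time and number, 10 members passed, all with a larger fall in ileum. The share of all genes called with that block is not given, so the 10 cannot be set against a general share.

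Segment levels were lower in ileum than in duodenum in GF and in convR mice. The ratio of summed member levels, ileum over duodenum, was 0.301 in GF and 0.448 in convR, or -1.73 and -1.16 on the log2 scale, and in both the libraries did not overlap. In GF, 42 of 45 tested members were lower in ileum and none higher (edgeR, 33.4% of all genes lower), with a median of -1.86. In convR, 48 of 63 were lower and none higher (24.8% of all genes lower), with a median of -1.31. As above, a member could pass the filter through a single group, here duodenum. Without the libraries that stood apart, 31 were lower in convR, in a fit with no duodenum library at ZT6 and ZT14.

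Igkv2-137 was among the segments with the smallest p in both tissue comparisons. It had 0.602 to 2.20 CPM (median 1.01) in GF ileum and 3.46 to 24.4 CPM (median 6.72) in GF duodenum, without overlap, a log2 fold change of -2.86 ± 0.29 (edgeR adjusted p = 8.30e-08). In convR its values were 1.18 to 14.8 CPM (median 3.46) in ileum and 4.44 to 70.2 CPM (median 10.8) in duodenum (-1.67 ± 0.29, adjusted p = 9.72e-05). Ighv7-3 differed by -2.99 ± 0.28 in GF (adjusted p = 1.80e-08), the smallest p of the GF comparison, followed there by Ighv6-3 (-1.80 ± 0.19) and Igkv17-127 (-2.48 ± 0.28). In convR, Igkv3-10 had the smallest p, with 1.63 to 6.72 CPM (median 4.03) in ileum and 3.78 to 15.8 CPM (median 9.42) in duodenum (-1.35 ± 0.20, adjusted p = 1.43e-05). Ighv5-2 differed by -1.79 ± 0.30 and Iglv1 by -1.33 ± 0.23. Of the constant region rows, which may share reads, 9 of 9 in GF (33.4% of all genes lower) and 8 of 9 in convR (24.8%) were lower in ileum. Of the B cell and follicle list, 4 of 11 tested genes were higher in ileum in GF (33.2% of all genes higher) and 1 of 12 in convR (24.9% of all genes higher), and none was lower.

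Usage, the set of shares over the 94 segments, was alike in ileum and duodenum libraries of convR mice that carried the same time and number. In 12 of 12 convR ileum libraries, the nearest of all duodenum libraries was the one of equal time and number, with a likeness of 0.900 to 0.990 (median 0.970). The likeness to the other library of the same time was 0.406 to 0.786. Among GF libraries this held in 7 of 11, with a likeness of 0.667 to 0.955 (median 0.904). The equal number was nearer than the crossed number in 22 of 23 ileum libraries. The exception was GF ileum ZT14 replicate 1, for which the GF duodenum library labelled ZT6 replicate 1 was nearest. The convR count was 12 of 12 under each other measure tried, and the GF count lay between 5 and 9 of 11.

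**Figure D5:**
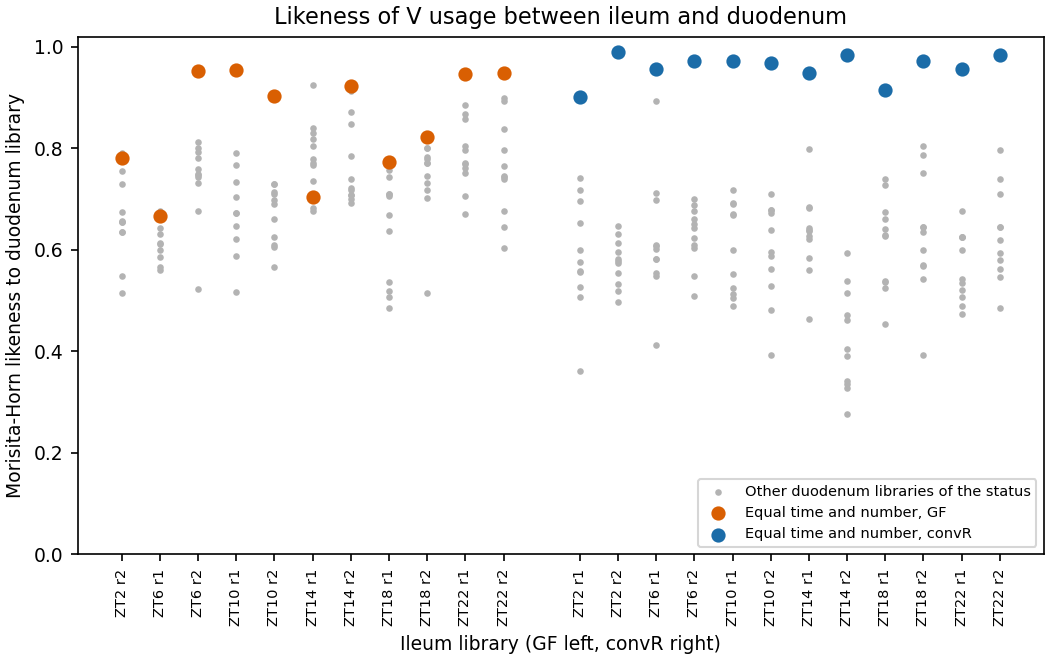
Morisita-Horn likeness of V usage (0 to 1) of each ileum library to the duodenum libraries of its status, with GF on the left and convR on the right. Coloured points mark the duodenum library of equal time and number and grey points all others. The 12 convR coloured points lie at 0.900 or above and over all their grey points, while 4 of the 11 GF ones do not lead.

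Between libraries of 1 tissue, the median likeness of usage was higher among GF than among convR libraries. In ileum it was 0.710 between GF libraries, 0.563 between convR libraries and 0.460 between a GF and a convR library. In duodenum these medians were 0.749, 0.642 and 0.478. Pairs share libraries, so the medians are a description without a test.

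By family of related segments, the members' shares of V counts are given without a test, and cover only the segments with V symbols. Families follow the names of the count table, so the row Ighv13-2, which the annotation calls Ighv6-7, is not counted in Ighv6. The 2 Ighv6 segments together held 14.6% ± 4.96 of V counts in GF ileum and 3.55% ± 2.69 in convR ileum, and 14.5% ± 5.34 in GF duodenum and 3.66% ± 2.44 in convR duodenum. The 3 Igkv17 segments held 1.46% ± 0.88 in GF ileum and 6.55% ± 4.05 in convR ileum, and 2.17% ± 1.32 in GF duodenum and 7.66% ± 4.31 in convR duodenum. The 19 Igkv4 segments, the largest family among the members, held 11% ± 5.94 in GF ileum and 16.8% ± 6.33 in convR ileum, and 8.35% ± 2.51 in GF duodenum and 15.7% ± 4.72 in convR duodenum. The 9 Ighv1 segments held 5.83% ± 3.15 in GF ileum, 5.02% ± 2.37 in convR ileum, 4.37% ± 2.08 in GF duodenum and 5.14% ± 1.93 in convR duodenum. GF and convR libraries overlapped in each of these families in both tissues. Libraries did not overlap in Ighv4 and Igkv7, each with 1 segment, whose shares were higher in GF in both tissues. Ighv4 held 1.98% to 19.7% in GF ileum and 0.094% to 0.705% in convR ileum. In duodenum it held 1.62% to 18.1% in GF and 0.126% to 0.806% in convR. Igkv7 held 0.193% to 1.52% in GF ileum and at most 0.043% in convR ileum. In duodenum it held 0.167% to 2.46% in GF and at most 0.018% in convR.

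Among the members tested for differences between the 6 times within a group, 1 passed. The shares of all genes given here are those of edgeR, and none is given for DESeq2. In GF ileum 0 of 8 tested members were called by edgeR (0.301% of all genes, 3 members at an unadjusted p under 0.05, 1 by DESeq2). In convR ileum 0 of 39 were called (0.0543% of all genes, 4 at an unadjusted p under 0.05, 5 by DESeq2), and in convR duodenum 0 of 52 (0.229% of all genes, 12 and 11). In GF duodenum 1 of 27 was called (0.913% of all genes, 4 at an unadjusted p under 0.05, 3 by DESeq2). It was Igkv17-127 (edgeR adjusted p = 0.0242), with 0.677 and 0.619 CPM at ZT2, 3.0 and 6.05 at ZT6, 0.837 and 1.55 at ZT10, 1.40 and 0.763 at ZT14, 1.47 and 1.63 at ZT18, and 0.693 and 0.654 at ZT22. Both ZT6 libraries were the highest, and 1 of them is the library that went against its time label. Leaving out any 1 library other than ZT6 replicate 1, ZT22 replicate 1 and those of ZT14 gave 0 calls, and leaving out both libraries that went against their labels gave 3, Igkv17-127 among them.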

How the data were processed

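RNA of duodenum and ileum was made into stranded, ribosome-depleted total RNA libraries and sequenced as pairs of 100 bases, per the labels' protocols. STAR 2.4.0i and the mm10 build are named in the submitters' processing notes. The authors deposited raw exon counts per gene, without normalization. How reads were counted, with which use of strand and of reads with several matches, is not given in the sources used here.

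Gene identifiers were matched to GENCODE M21 (36308 of 38087). CPM used library totals, and RPKM also the deposited exon lengths. edgeR 4.0.16 (R 4.3.3; limma 3.58.1) fitted quasi-likelihood models over all genes after TMM scaling and filterByExpr with a minimum count of 10, with time as a factor and Benjamini-Hochberg adjusted p under 0.05 as the threshold. The filter kept a gene with enough counts in either group of a comparison. DESeq2 1.42.0 was an alternative, and the fits were tested on simulated data. Sums, detection, diversity and likeness were computed with Python 3.11.15 (numpy 2.4.6, pandas 2.3.3, scipy 1.17.1) and carry no test. Thinning was the exact hypergeometric expectation. A library stood apart if its mean over the pancreas or the stomach markers exceeded 100 CPM, its TMM factor exceeded 1.2, or it was an ileum library with less than 1000 CPM of Fabp6.

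Named were the leading segments of each locus and group, all Iglv, the called segments with the smallest p in each comparison and the leaders of the most dominated libraries. The members, lists and tests were chosen with earlier results of these data known. Replicate numbers were checked by the correlation of deviations from group means. Ileum and duodenum of convR deviated together at all 6 times (0.175 to 0.475), so those numbers pair libraries, although the labels do not name the animals.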

Additional observations from a re-analysis of the deposited data

How the results depend on the processing

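The counts of called segments in GF against convR were 49 to 52 in duodenum and 43 to 50 in ileum when 1 library was left out, 44 and 45 without the libraries that stood apart, and 50 and 45 with the replicate block. The ileum count was 71 with no low-count filter. Shares of all genes called are given for the main edgeR fits only. Counts under other settings, here and below, cannot be set against a general share. The tissue difference gave 0 calls with any 1 library left out and 10 with the replicate block. Ileum against duodenum gave 63 calls in convR and 43 in GF with the block, 45 to 52 and 34 to 42 with 1 library left out, and 31 and 36 without the libraries that stood apart. In the check over all genes, correlations of equal numbers were over 0.1 at 2 of 5 times between GF tissues, at 2 of 6 between statuses in duodenum and at 2 of 5 in ileum. In V usage alone, the equal number was nearer than the crossed number in 10 of 11 GF ileum libraries.

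Calls for time of day moved with the tool. DESeq2 gave 3 in GF duodenum, 11 in convR duodenum, 1 in GF ileum and 5 in convR ileum. With no filter there were 59, 1, 49 and 1 in the same order, and the cause was not tested. Leaving out 1 library gave 0 to 2 in GF duodenum and 0 to 1 in convR duodenum. Without the 2 libraries that went against their time labels, a choice made after seeing the data, GF duodenum had 3, and GF against convR duodenum had 51 calls.

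Detected segments, GF minus convR, were -12.8, -18.2 and -18.4 in duodenum and -17.3, -22.1 and -24.9 in ileum at full depth with at least 1, 3 and 10 counts. V reads also differed in number between the groups. Thinned to 1174 V reads, the means were 63.9 in GF ileum and 59.2 in convR ileum. In duodenum they were 63.8 in GF and 61.3 in convR, so the lower GF numbers were not seen at equal V reads. The groups overlapped, and the thinned values carry no test. Over all V segments by identifier, also chosen after seeing the data, the thinned difference was 10.4 and that of the effective number 10.7 in ileum. Of 2451 alternative values of named segments, 2413 had the same outcome as the main fit, called or not called. A call was lost in 35 and gained in 3, and no segment called in the main fit changed sign. These values include the fits with 1 library left out, which share most of their libraries. With 1174 V reads in the smallest library, segments under 3 counts cannot be told from absent ones.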
